A study of Mus musculus with 6 samples.

Results

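Small nucleolar RNAs (snoRNAs) and small Cajal body RNAs (scaRNAs) were examined in small pre-B cells sorted from mouse bone marrow. The members are the rows of the count table whose gene symbol starts with Snora, Snord or Scarna. They number 142 of 49997 rows, and comprise 94 Snord, 39 Snora and 9 Scarna rows. Of these, 97 had at least 1 count in some library and 45 were listed at 0 in every library. No member reached the 60 counts, summed over the 6 libraries, that had been set for describing single members, and the highest sum was 42.

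Snord genes encode box C/D RNAs, many of which pair with ribosomal RNA and direct the protein Fbl to methylate the ribose of a chosen nucleotide. Snora genes encode box H/ACA RNAs, many of which direct the pseudouridine synthase Dkc1 to chosen uridines. Scarna genes encode RNAs of either kind, or of both joined, that stay in the Cajal body and guide the same modifications on spliceosomal RNAs. Most mammalian members are cut out of the introns of a host gene after splicing, so their production is tied to transcription of the host, while their level also depends on their assembly with protein.

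Both groups were on the C57BL/6 background and were 6 to 12 weeks old. The WT group had 3 libraries and the group with the ΔrsCBE genotype had 3, all from small pre-B cells purified by flow cytometry. The labels do not spell out what the ΔrsCBE allele changes, and they do not say whether each library came from its own mouse, so the p-values measure only the spread between these libraries. Libraries were made with a strand-keeping kit from total RNA after removal of ribosomal RNA. Per-library values are given below in the order of replicates 1, 2 and 3.

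Library totals lay between 428106 and 1300805 counts. Mitochondrial genes held 9.07%, 11.3% and 10.8% of them in the WT libraries and 8.87%, 8.90% and 8.83% in those of ΔrsCBE, so this share was lower in every ΔrsCBE library. In ΔrsCBE replicates 2 and 3 Xist had 1603 and 1430 counts, against at most 1 elsewhere, and Y-linked genes were at 0, so these are female-pattern libraries and the other 4 are male-pattern. All 10 pre-B markers examined, among them Cd79a, Pax5 and Rag1, were abundant enough to test. Erythroid markers summed to at most 1 count in a library, T and NK markers to at most 2. Myeloid markers summed to 0 to 4 in WT and 6 to 7 in ΔrsCBE libraries. Lyz2 and S100a9 were at 0 in every WT library, against 2, 4 and 2 and 2, 1 and 3 counts in ΔrsCBE. Csf1r had 4, 0 and 2 counts in WT against 1, 1 and 2 in ΔrsCBE. Mpo had 1 count, in ΔrsCBE replicate 1, and Elane and S100a8 were at 0 throughout. Values with the sex pattern taken into account are given for the Snord and Scarna totals, Scarna2, Snord15b, the host genes and Gm22009. The part of the myeloid counts in the results was not tested.

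The following sequences are shown because they belong to the members with the highest counts, and because they display the boxes after which the classes are named. They are GENCODE M21 transcripts on GRCm38, the assembly also called mm10, written 5′ to 3′. Capitals mark the C box letters TGATGA within the first 25 bases and the D box letters CTGA within the last 25, or, for Snora, the letters ACA ending 3 bases before the 3′ end. Snord15a (chr7:99482785-99482932, minus strand) and Snord15b (chr7:99479563-99479707, minus strand) both lie inside Rps3, a ribosomal protein gene. Snora7a (chr6:115807975-115808114, minus strand) lies inside Rpl32, and Snora65 (chr2:32963291-32963420, plus strand) inside Rpl12. Scarna10 (chr6:125186359-125186683, minus strand) lies inside Ncapd2, which encodes a condensin subunit; it has 325 bases, of which the first 100 and the last 100 are printed.
Snord15a: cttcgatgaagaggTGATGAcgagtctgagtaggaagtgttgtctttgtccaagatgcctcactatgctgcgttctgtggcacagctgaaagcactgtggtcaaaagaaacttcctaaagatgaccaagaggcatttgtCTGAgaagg
Snord15b: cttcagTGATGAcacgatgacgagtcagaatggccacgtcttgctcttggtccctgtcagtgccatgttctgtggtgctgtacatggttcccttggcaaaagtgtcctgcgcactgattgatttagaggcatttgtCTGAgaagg
Snora7a: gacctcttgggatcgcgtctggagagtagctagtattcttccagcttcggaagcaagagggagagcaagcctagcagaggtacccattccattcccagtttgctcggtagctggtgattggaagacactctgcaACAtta
Snora65: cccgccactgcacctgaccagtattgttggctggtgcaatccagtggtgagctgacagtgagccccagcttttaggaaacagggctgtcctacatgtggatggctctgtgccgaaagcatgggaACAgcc
Scarna10 start: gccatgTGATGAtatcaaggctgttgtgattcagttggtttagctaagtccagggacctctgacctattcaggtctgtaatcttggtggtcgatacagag
Scarna10 end: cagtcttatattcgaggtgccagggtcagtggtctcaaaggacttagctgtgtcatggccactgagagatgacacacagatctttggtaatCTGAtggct

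Across the 140 members that GENCODE M21 lists, TGATGA and the ACA ending each occurred in only 1 of the Snord and Snora classes, and Scarna held some of every kind. On the RNA strand alone, TGATGA was found within the first 25 bases of 64 of 92 Snord (69.6%), 0 of 39 Snora and 4 of 9 Scarna sequences. The same window held it in 0.707% of the 140102 GENCODE transcripts of 85 bases or more. CTGA within the last 25 bases was found in 91 of 92 Snord (98.9%), 5 of 39 Snora (12.8%) and 6 of 9 Scarna sequences, and in the corresponding window at the end of the first 85 bases of 12.7% of transcripts. ACA at its fixed distance was found in 33 of 39 Snora (84.6%), 0 of 92 Snord and 2 of 9 Scarna sequences and in 1.73% of transcripts cut to 85 bases.

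All members together held 670 counts, which is 0.0134% of the 4998109 counts of the series. Snord rows held 357 of them, Snora rows 197 and Scarna rows 116. The 10 members with the highest sums held 315 counts, or 47.0%. A further 27 members had 5 to 19 counts and 60 had 1 to 4, so most detected members were seen through a few reads only. Only 10 members had a count in each of the 6 libraries. Scaled to length with the RefSeq gene spans, Scarna rows held 104 counts per kb, Snord rows 47.9 and Snora rows 40.02. With GENCODE spans, which are longer for many members, the values were 63.1, 43.1 and 35.8 counts per kb. Without the Snord116l rows, all at 0, Snord rows held 60.8 counts per kb by RefSeq and 53.7 by GENCODE, so how far Scarna rows stand above Snord rows depends on the annotation. The Scarna value also rests on few rows. Scarna2, Scarna10 and Scarna13 had 42, 37 and 28 of the 116 counts, while 4 Scarna rows had 1 to 4 and 2 had 0.

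**Figure D1:**
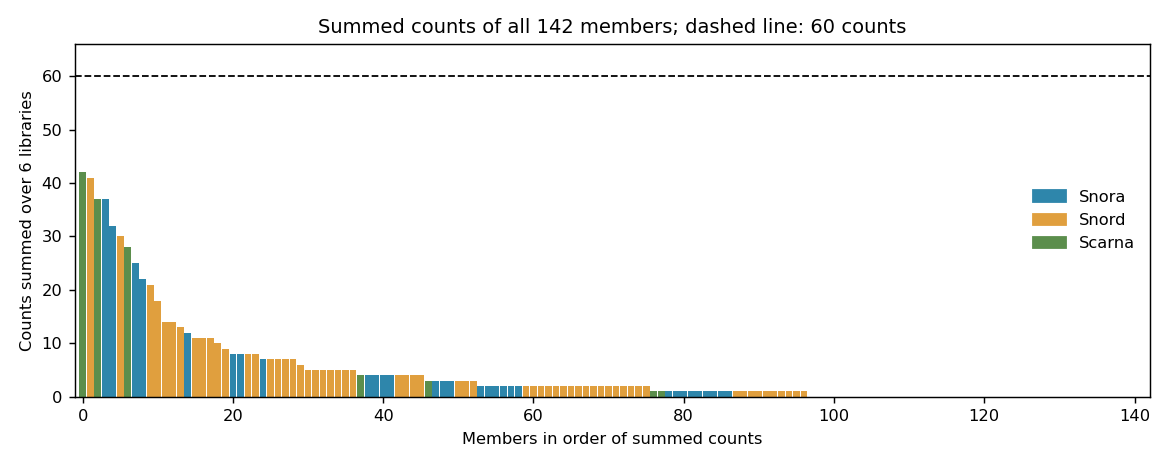
Counts of each of the 142 members summed over the 6 libraries (vertical axis), with members in falling order (horizontal axis) and bars coloured by class. All bars stay below the dashed line at 60 counts, the highest at 42, and 45 members have no bar.

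Only the Snord total had groups that did not overlap, and there too the counting intervals of single libraries did. Values are CPM, the counts of a feature scaled by the total and TMM factor of the library. Their 95% Wilson intervals are computed within a library and cover counting error only. The labels name no molecular identifiers and reads may repeat a molecule, so even the counting error may be larger. In the WT libraries all members summed to 139 CPM (113 to 171), 127 CPM (96.8 to 166) and 120 CPM (103 to 141). In the ΔrsCBE libraries they summed to 138 CPM (115 to 165), 133 CPM (112 to 158) and 152 CPM (128 to 182). The groups overlapped, with means of 129 ± 9.43 and 141 ± 10.1 CPM (SD, n = 3) and a log2 ratio of 0.13.

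Snord rows summed to 64.8, 69.3 and 61.8 CPM across the WT libraries and to 82.6, 74.5 and 77.4 CPM across those of ΔrsCBE. The groups did not overlap, although the interval of every ΔrsCBE library overlapped that of every WT library. With 29 to 80 counts in a library these intervals are wide, so their overlap cannot decide whether the groups differ. The means were 65.3 ± 3.78 and 78.2 ± 4.10 CPM (SD, n = 3), a log2 ratio of 0.26. Among the 5022 single genes with 100 to 800 summed counts, 15.8% had groups that did not overlap. A total over chosen members was given no test. With mitochondrial genes left out of the library totals, the log2 ratio was 0.23. It was 0.22 to 0.30 over the libraries left out in turn and 0.34 in the male-pattern libraries alone.

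Snora rows summed to 60.02, 31.1 and 42.5 CPM across the WT libraries and to 33.03, 32.2 and 38.1 CPM across those of ΔrsCBE. WT replicate 1 was the highest library and WT replicate 2 the lowest, so the ΔrsCBE values lay within the WT range. The log2 ratio of the means was -0.37, and it moved to -0.094 without WT replicate 1, to -0.57 without WT replicate 2 and to -0.54 without Snora7a. Scarna rows summed to 14.2, 26.3 and 16.2 CPM in WT and to 22.4, 26.2 and 36.9 CPM in ΔrsCBE. Their log2 ratio was 0.59, and it moved to 0.90 without WT replicate 2, to 0.36 without ΔrsCBE replicate 3, to 0.30 without Scarna2 and to 0.25 in the male-pattern libraries alone. For both classes the ratio was smaller than the spread between libraries, the relative SDs of both groups combined on the log2 scale. The Snord ratio of 0.26 was larger than its spread of 0.11. That spread, however, was smaller than counting error alone would give. The counting chi-square per degree of freedom was 0.144 in WT and 0.195 in ΔrsCBE. The small Snord spread therefore cannot show that the Snord ratio exceeds noise.

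**Figure D2:**
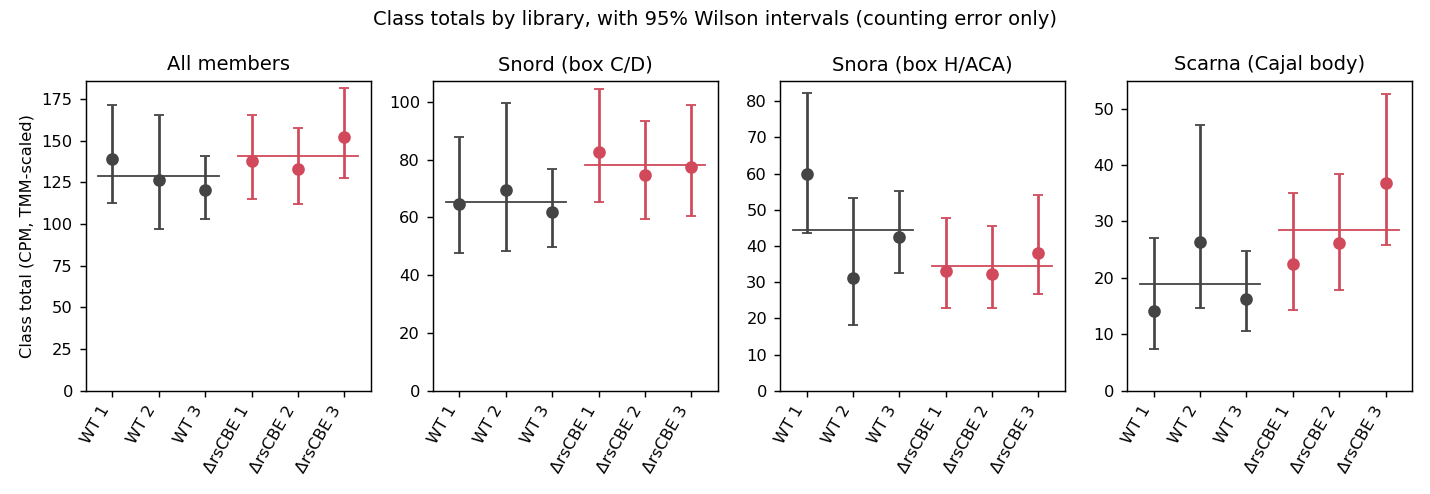
Class totals in CPM (vertical axes, starting at 0) for each of the 6 libraries; points are libraries, bars are 95% Wilson intervals and horizontal lines are group means. Only the Snord totals do not overlap between the groups, and their intervals do.

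No member passed the count filter of the genotype comparison, which needs about 12.1 CPM in 3 libraries. Therefore 0 of 142 members were called, beside 1.69% of the 7792 genes tested, 1.49% lower and 0.205% higher (edgeR's quasi-likelihood test, Benjamini-Hochberg adjusted p-value under 0.05). To give the members a value, the same edgeR model was fitted to every gene with a count, and in this fit 0.981% of 17435 genes were called. Again 0 of the 97 detected members were called. An unadjusted p-value under 0.05 was reached by 3 of the 97 in edgeR, beside 6.41% of all genes, and by 0 with the DESeq2 Wald test. The 3 were Snord15b, Snord14d and Snord73b, and the last of these had 1, 3 and 1 counts in the WT libraries and 0 in each of the others. The smallest adjusted p-value of a member in the unfiltered edgeR fit was 0.584.

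The 10 members with 20 or more summed counts are described singly; this line was set after the sums had been seen. Scarna2 had the highest sum. Its values were 4.74, 2.39 and 6.95 CPM across the WT libraries and 9.44, 11.1 and 12.3 CPM across those of ΔrsCBE. Each ΔrsCBE library lay above each WT library, but the WT values rest on 1 to 9 counts. The log2 fold change stood at 1.00 ± 0.56 (SE; unfiltered edgeR fit, adjusted p-value 0.751). Over 12 alternatives it ran from 0.79 with the sex pattern as a covariate (unfiltered edgeR fit, adjusted p-value 0.920) to 1.52 without WT replicate 3. Groups that do not overlap occurred in 2 of these 10 members, Scarna2 and Snora23, and in 11.1% of all genes with 20 to 42 summed counts.

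The annotated span of Scarna2 differs between sources. GENCODE gives it 414 bases (chr3:108554338-108554751, minus strand), whereas RefSeq gives it 61. Its last 105 bases (chr3:108554338-108554442) are shown with the RefSeq stretch in capitals. Of the 140 members in GENCODE, 95 are shorter in RefSeq and 7 are under 50% of the GENCODE length, among them Scarna10 with 71 bases against 325. The annotation used for counting is not given in the sources used here, although all row symbols of the members occur in RefSeq.
Scarna2: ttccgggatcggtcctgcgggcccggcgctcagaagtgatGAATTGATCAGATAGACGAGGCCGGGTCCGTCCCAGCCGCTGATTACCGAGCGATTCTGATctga

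Snord15a and Snord15b share their host Rps3, and both pair with ribosomal RNA as box C/D guides. Snord15a had 6.32, 4.78 and 10.04 CPM across the WT libraries and 13.0, 5.03 and 7.37 CPM across those of ΔrsCBE, and the groups overlapped. Snord15b was at 0 in WT replicates 1 and 2 and at 5.41 CPM in WT replicate 3, against 15.3, 6.04 and 4.92 CPM in ΔrsCBE. With 0 counts, WT replicate 1 allows up to 4.74 CPM and WT replicate 2 up to 7.17 CPM, and the latter exceeds the values of ΔrsCBE replicates 2 and 3. The log2 fold changes were 0.09 ± 0.55 (SE) for Snord15a and 1.57 ± 0.69 (SE) for Snord15b (unfiltered edgeR fit, adjusted p-values 0.983 and 0.584). The Snord15b value moved with the libraries that entered: it was 2.38 with the sex pattern as a covariate (unfiltered edgeR fit, adjusted p-value 0.218), and 0.94 without ΔrsCBE replicate 1 and 5.73 without WT replicate 3 (unfiltered edgeR fit, adjusted p-values 0.792 and 0.0795), the latter a fitted value against WT libraries all at 0 and so no bound. Whether the pair differ from each other was not tested. Rps3 itself averaged 131 ± 16.1 CPM in WT against 146 ± 34.6 CPM in ΔrsCBE (SD, n = 3), giving a log2 fold change at 0.14 (edgeR adjusted p-value 0.852).

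Snora23, which lies in the importin gene Ipo7 (chr7:110046364-110046547, plus strand), had 7.90, 7.17 and 4.63 CPM across the WT libraries and 3.54, 3.02 and 2.46 CPM across those of ΔrsCBE. Each of these ΔrsCBE values stands for 2 or 3 counts. Its log2 fold change stood at -0.98 ± 0.75 (SE; unfiltered edgeR fit, adjusted p-value 0.751). Snora81, in the translation factor gene Eif4a2 (chr16:23110756-23110933, plus strand), read 9.48, 2.39 and 7.72 CPM across the WT libraries and 3.54, 3.02 and 2.46 CPM across those of ΔrsCBE. WT replicate 2 was the lowest of the 6, so these groups overlapped, and the log2 fold change was -1.19 ± 0.72 (SE; unfiltered edgeR fit, adjusted p-value 0.751).

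The remaining abundant members overlapped between the groups as well. Snora7a averaged 6.55 ± 2.55 CPM in WT against 8.30 ± 0.278 CPM in ΔrsCBE (SD, n = 3). Snora65 had 8.15 ± 2.37 and 5.86 ± 3.55 CPM, Scarna10 8.93 ± 2.65 and 6.98 ± 2.90 CPM, and Scarna13 4.48 ± 4.41 and 7.53 ± 2.59 CPM. Snord96a, in the ribosomal scaffold gene Rack1, had 4.19 ± 4.83 and 4.42 ± 3.90 CPM and was at 0 in replicate 2 of both groups. Standard errors of the log2 fold change of the 10 members lay between 0.55 and 0.75, and 5 of the 10 fold changes were above 0. The sign for Snord15a, Scarna10 and Snord96a turned when single libraries were left out.

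**Figure D3:**
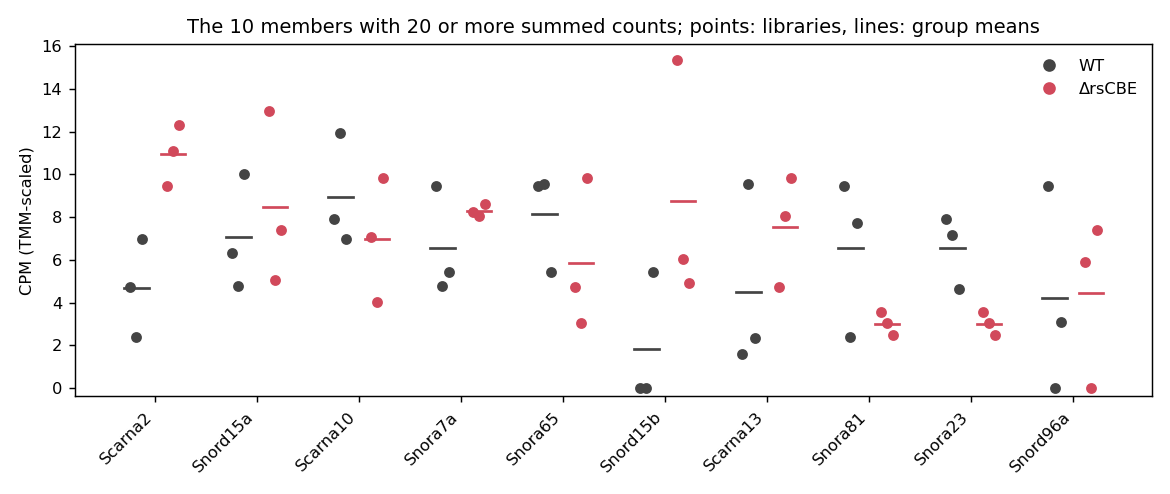
CPM (vertical axis) of the 10 members with 20 or more summed counts in each library; points are libraries and short lines are group means. Groups overlap in 8 of the 10 members, and no value exceeds the 15.3 CPM of Snord15b in ΔrsCBE replicate 1.

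The next members by sum were Snord2 with 18 counts and Snord49b and Snord14d with 14 each. Snord14d is 1 of 3 box C/D RNAs of the chaperone gene Hspa8 and had 1, 0 and 1 counts in the WT libraries against 2, 8 and 2 in those of ΔrsCBE. The others in that gene, Snord14e and Snord14c, summed to 13 and 5 counts. Snord118, the box C/D RNA also known as U8, which acts in ribosomal RNA processing, had 2 counts in all. Outside the naming rule, the telomerase RNA gene Terc, an H/ACA RNA, had 11 counts and Rnu3a had 3, all in WT replicate 2, while Gm22009, described further on, had 691.

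Of the 45 members at 0, 17 were the Snord116l rows, a repeated box C/D family in the imprinted Snhg14 transcription unit that is known mainly from neurons. Of these, 14 have the same sequence, which 30 genes of GENCODE M21 carry exactly, so reads from it could not be assigned to 1 row. The sequence is printed because so many rows share it, with boxes in capitals as above. Snhg14 itself had 1 count. Only 1 other member, Snora19, has a sequence that a further GENCODE gene carries.
Snord116l10: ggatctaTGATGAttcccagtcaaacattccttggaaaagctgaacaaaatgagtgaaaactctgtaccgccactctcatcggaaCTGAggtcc

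The other 28 members at 0 were 17 Snord, 9 Snora and 2 Scarna rows. A host in the table was found for 22 of them, and for 10 that host had 60 or more counts. Examples are Snora19 in Eif3a, a translation initiation factor gene with 2004 counts, and Snord23 in Nop53, a ribosome biogenesis gene with 1100 counts. A sum of 0 over the 6 libraries allows up to 0.5998 CPM, a limit from counting error only. Among the 125 members other than Snord116l, the share with a count was 76.1% for spans of 28 to 68 bases, 75.8% for 70 to 99, 76.5% for 101 to 139 and 91.7% for the 12 members of 145 to 275 bases. Across these 125 members Spearman's rho between span and summed counts was 0.10, a weak relation in sparse counts.

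A host gene, one whose span holds the member on the same strand in GENCODE M21, was found for 132 members. The hosts number 87 genes, 83 of them in the table, and 24 of those 83 encode ribosomal proteins. Setting Snord116l aside, 33 members sat in ribosomal protein genes and 28 of them had a count, as did 60 of the 82 in other hosts. Members whose host had more than the median of 273 counts were detected in 47 of 54 cases, and those with hosts at or below it in 40 of 55. Over the 109 members with a host in the table Spearman's rho between host and member counts was 0.30, with both taken from the same libraries. In 75 of the 109 the member had fewer counts per kb than the exons of its host, in 33 it had more, and the medians were 28.6 and 64.3 counts per kb. With GENCODE spans for the members these counts were 80 and 28. The span of 55 members overlapped an annotated exon of the host, and 43 of these had a count, as did 45 of the 60 that lay in introns only. Their densities were 69.05 and 44.2 counts per kb. Snord15b, Scarna10, Snora7a, Snora65, Snora81 and Snord96a are among those with such an overlap, so reads of the RNA and of that host transcript cannot be told apart there. In total RNA, reads of unspliced host RNA were not separated from those of members in introns either.

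More hosts than members had enough counts to be tested. Of the 83 host genes, 59 were tested and 2 fell in ΔrsCBE, 0 rose, which is 3.39% called beside 1.69% of all genes (1.49% lower). The median log2 fold change was 0.10 over the tested hosts and 0.01 over all 7792 genes. Of the 16 tested ribosomal protein hosts, 14 had a fold change above 0, as did 27 of the 43 other tested hosts. None of the 16 was called, the smallest edgeR adjusted p-value being 0.201. An unadjusted edgeR p-value under 0.05 was reached by 4 of the 16, and by 10.2% of all genes. Whether the ribosomal protein hosts moved as a set was not tested.

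Ncapd2 (chr6:125168007-125191701, minus strand), the host of Scarna10, had 275, 318 and 350 CPM across the WT libraries and 149, 138 and 141 CPM across those of ΔrsCBE. Every ΔrsCBE library lay below every WT library. The log2 fold change stood at -1.15 ± 0.13 (SE; edgeR adjusted p-value 2.24e-05). Ckap5 (chr2:91526762-91620664, plus strand), a microtubule polymerase gene that hosts Snord67, read 306, 368 and 317 CPM across the WT libraries and 162, 241 and 159 CPM across those of ΔrsCBE. Its log2 fold change stood at -0.80 ± 0.15 (SE; edgeR adjusted p-value 0.00235). Both hosts act in mitosis. Of the cell-cycle genes given for context 3 of the 4 tested fell as well, with log2 fold changes for Mki67, Top2a and Ccna2 of -0.97, -1.19 and -1.24, while Cdk1 at -0.52 was not called; their part in the fall of the hosts was not tested.

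The RNAs inside these hosts were too scarce to show whether they followed. Scarna10 read 7.90, 11.9 and 6.95 CPM across the WT libraries and 7.08, 4.03 and 9.83 CPM across those of ΔrsCBE, so the groups overlapped. It stood at a log2 fold change -0.27 ± 0.57 (SE; unfiltered edgeR fit, adjusted p-value 0.922), with an approximate 95% interval from -1.39 to 0.86 that holds both 0 and the value of Ncapd2. Snord67 had 1 count in the 6 libraries. Without ΔrsCBE replicate 1, which leaves the female-pattern libraries as the ΔrsCBE group, 6 of 61 tested hosts were called, beside 1.94% of 8087 genes. Ncapd2 and Ckap5 were lower, and Rpl4, Hspa8, Rpl32 and Rplp2 higher. With all libraries and the sex pattern as a covariate, 3 of 59 tested hosts were called, beside 1.12% of 7792 genes. Ncapd2 and Ckap5 were lower and Rpl3 higher. Which hosts were called higher thus changed with the libraries and the covariate that entered. With only female-pattern ΔrsCBE libraries, genotype and sex pattern cannot be told apart.

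**Figure D4:**
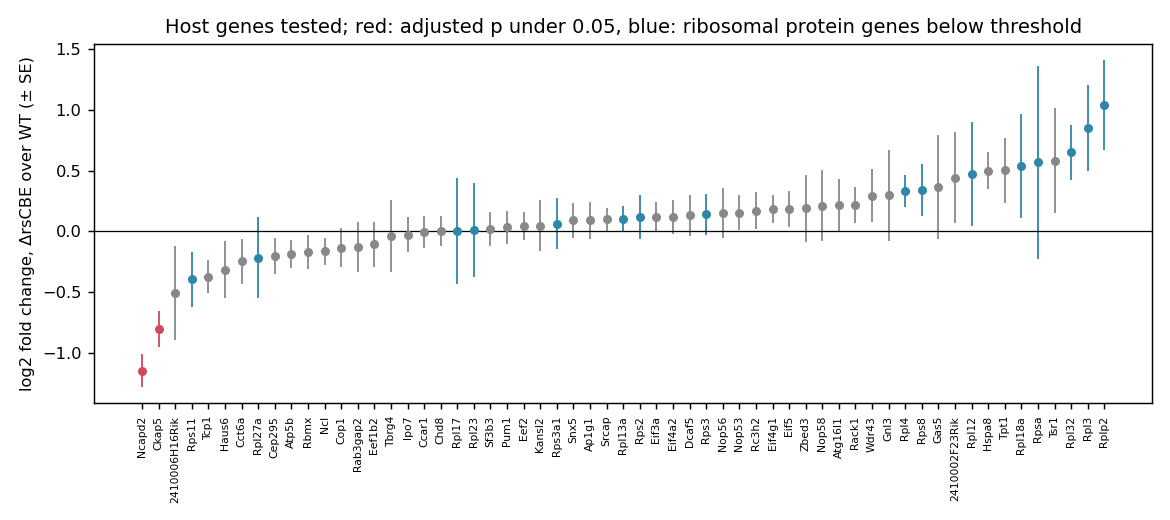
Log2 fold change, ΔrsCBE over WT, with its standard error (vertical axis) for the 59 host genes tested, in rising order. Ncapd2 at -1.15 and Ckap5 at -0.80, in red, are the 2 past the edgeR threshold; blue points are ribosomal protein genes.

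The proteins that bind and modify these RNAs showed no called change. Of the 4 box C/D core genes, Nop56, Nop58 and Snu13 were tested, with log2 fold changes of 0.15, 0.21 and 0.18. Nop56 averaged 64.2 ± 13.4 CPM in WT against 71.2 ± 11.2 CPM in ΔrsCBE (SD, n = 3). The methyltransferase gene Fbl was below the filter, at 6.29 ± 1.34 and 8.45 ± 2.52 CPM. Of the 4 box H/ACA core genes only Dkc1 was tested, at 26.7 ± 3.71 and 34.0 ± 4.39 CPM, giving log2 0.31 ± 0.27 (SE; edgeR adjusted p-value 0.785). Nhp2, Nop10 and Gar1 summed to 49, 47 and 20 counts.

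Among 10 assembly factors 4 were tested and 0 called, with log2 fold changes from -0.40 for Ruvbl2, an ATPase that loads core proteins, to 0.29 for Nufip1. Among 5 Cajal body genes 4 were tested and 0 called. Coil, which encodes the marker protein of the Cajal body, averaged 26.5 ± 12.2 CPM in WT against 16.6 ± 1.05 CPM in ΔrsCBE, giving log2 -0.67 ± 0.35 (SE; edgeR adjusted p-value 0.549). All 6 genes for release and trimming, such as the debranching enzyme gene Dbr1, were tested and 0 were called, within -0.24 to 0.21. In these 5 lists 0 of the 18 tested genes were called by edgeR or DESeq2, beside 1.69% of all genes by edgeR, and 0 had an unadjusted edgeR p-value under 0.05, beside 10.2% of all genes. With so few genes tested, a count of 0 lies near that background of calls. Of 20 noncoding host genes only Gas5, Snhg5 and Snhg20 were tested, with log2 fold changes of 0.37, 0.61 and 0.56 and 0 called; 3 of the 20 were at 0.

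The table holds 1240 further rows that RefSeq classes as snoRNA or guide RNA under other symbols, of which 153 had a count. Gm22009 was the only 1 of them with 60 or more counts and the only 1 tested; it was chosen with its values known. GENCODE classes it as a scaRNA, and it lies in an intron of Kpna4, an importin gene, on the same strand (chr3:69085105-69085447, minus strand, 343 bases). Its 691 counts exceed the 670 of all 142 members together. Its first 100 and last 100 bases are shown because they carry both boxes, in capitals as above, and because its result is the only one for an RNA of this kind that the depth allowed.
Gm22009 start: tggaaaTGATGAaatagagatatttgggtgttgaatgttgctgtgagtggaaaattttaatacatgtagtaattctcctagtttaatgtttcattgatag
Gm22009 end: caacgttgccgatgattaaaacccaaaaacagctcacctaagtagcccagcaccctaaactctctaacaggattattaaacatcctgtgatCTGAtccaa

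Gm22009 had 96.3, 112 and 101 CPM across the WT libraries and 171, 166 and 174 CPM across those of ΔrsCBE. Every ΔrsCBE library, the male-pattern replicate 1 included, lay above every WT library. The means were 103 ± 8.18 and 171 ± 4.24 CPM (SD, n = 3), and Gm22009 rose by 0.74 ± 0.15 on the log2 scale (SE; edgeR adjusted p-value 0.00582; 0.205% of all tested genes were called higher). Its host Kpna4 averaged 126 ± 21.7 CPM in WT against 113 ± 21.0 CPM in ΔrsCBE, giving log2 -0.18 ± 0.17 (SE; edgeR adjusted p-value 0.807). Reads of unspliced Kpna4 RNA over the span of Gm22009 were not separated from those of Gm22009. The fold change of Gm22009 stayed between 0.70 and 0.79 over 14 alternatives, with edgeR or DESeq2 adjusted p-values from 0.000744 to 0.0790. It was not past the threshold without WT replicate 3 (edgeR adjusted p-value 0.0790) and with the sex pattern as a covariate (edgeR adjusted p-value 0.0574).

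**Figure D5:**
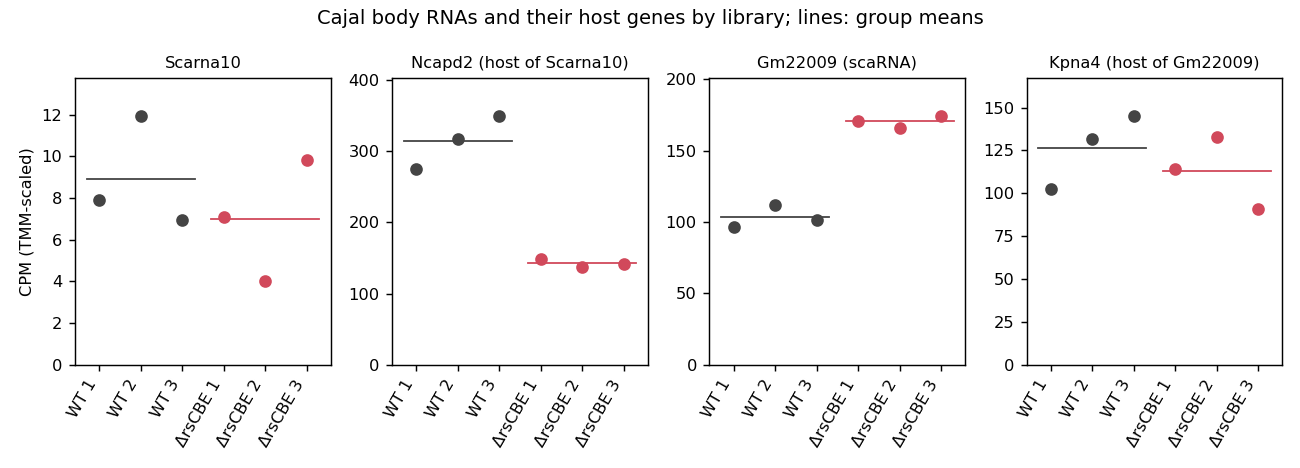
CPM (vertical axes, starting at 0) of Scarna10, Gm22009 and the host gene of each in the 6 libraries; points are libraries and lines are group means. Ncapd2 is lower in each ΔrsCBE library while Scarna10 overlaps, and Gm22009 is higher in each ΔrsCBE library while Kpna4 overlaps.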

How the data were processed

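The authors deposited raw read counts by gene symbol for the 6 libraries in 1 table. Per the submitters' processing notes, Trim Galore 0.6.10, STAR 2.7.11, HTSeq, DESeq2 and the build mm10 were used, and the kit was strand-specific per the labels; counting mode, strand setting, annotation and handling of reads with several matches are not given in the sources used here. Short RNAs can be lost in RNA clean-up and library preparation, and reads of repeated or exon-overlapping members can be dropped in counting; neither was measured.

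Counts were tested with edgeR 4.0.16 in R 4.3.3 (filterByExpr with a minimum count of 10, TMM scaling, robust glmQLFit, glmQLFTest, genotype alone, Benjamini-Hochberg adjustment over all tested genes, threshold 0.05). CPM used all counts of a library times its TMM factor. Standard errors came from the F statistic. The model was tested on simulated data for genes that pass the count filter only. That test therefore did not cover the unfiltered fit used for the members. Alternatives were other scalings, DESeq2 1.42.0, other filters, a replicate block, a sex covariate and each library left out. No pairing by replicate number is stated, and the samples were treated as unpaired. Wilson intervals (95%) and correlations used scipy 1.17.1. Members and lists were chosen with earlier results of these data known. By the naming rule, members with 60 or more summed counts were to be named; none reached it, so those with 20 or more were. Host genes past the threshold and core protein genes are named. Coordinates and sequences are from GENCODE M21; symbols, spans and classes from RefSeq for GRCm38.p6.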

Additional observations from a re-analysis of the deposited data

How the results depend on the processing

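No member passed the count filter at this depth, so the median fold change of tested members could not be computed. The number passing was 97 with no count filter, 41 when 3 libraries had to reach 1 CPM and 1 (Snord15b) in the male-pattern libraries alone, and 0 without any single library. Members called numbered 0 under all 15 alternatives, most of which had no member to test, as did snoRNP protein genes and listed noncoding hosts. Host genes called numbered 2 or 3 under 13 alternatives, 4 in the male-pattern libraries and 2 to 6 over the libraries left out in turn. With the replicate block 2 of 59 tested hosts were called, again Ncapd2 and Ckap5, beside 1.75% of 7792 genes. Gm22009 then stood at log2 0.74 (edgeR adjusted p-value 0.0127). Same-numbered libraries had correlations of deviations of 0.013, 0.020 and 0.0091, within the -0.047 to 0.034 of differently numbered ones. The numbers thus gave no sign of pairing, and whether such libraries shared a preparation was not tested. Class ratios kept their sign and moved by less than the spread of the libraries. Signs turned for Snord15a (-0.01, -0.06 and -0.35 without WT replicate 1, WT replicate 2 and ΔrsCBE replicate 1; -0.35 to 0.57 over the libraries left out), for Scarna10 (0.046 without ΔrsCBE replicate 2; range -0.58 to 0.046) and for Snord96a (0.24 with the replicate block, 0.45 with the sex covariate, 0.46 in the male-pattern libraries, 0.87 without WT replicate 1 and 0.62 without ΔrsCBE replicate 2; range -0.61 to 0.87). None of these was called; the cause was not tested. The alternatives for Gm22009, the GENCODE spans and the line of 20 counts were chosen after seeing the data.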

Other observations

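Apart from Gm22009, 9 rows outside the naming rule that RefSeq classes as snoRNA or guide RNA had 20 or more summed counts, and the highest of them, Gm24339, had 41. None was called in the unfiltered edgeR fit. Gm23346, a snoRNA row, averaged 3.65 ± 1.57 CPM in WT against 10.8 ± 3.24 CPM in ΔrsCBE (SD, n = 3) with no overlap between the groups, giving log2 1.32 ± 0.60 (SE; unfiltered edgeR fit, adjusted p-value 0.624). LOC115487644 averaged 8.11 ± 5.69 and 2.31 ± 2.47 CPM, giving log2 -1.80 ± 0.73 (SE; unfiltered edgeR fit, adjusted p-value 0.451). Both were singled out after their values were seen.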
